A study of Mus musculus with 32 samples.

Results

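The genes described here are those of Wnt and Norrin signalling that a mouse gene expression array could read in the early postnatal retina. A gene was a member where its symbol began with Wnt and a digit, Fzd, Sfrp, Dkk, Dvl, Tcf7 or Axin, or was Ndp, Lrp5, Lrp6, Lef1, Ctnnb1, Tspan12 or Wif1, and 2 genes of these families were left out by the rule. This gave 49 of the 12393 genes with a probe set of their own, measured by 75 of 22626 probe sets, and the probe set with the highest mean stood for each gene. The 49 genes were 20 ligands, 9 receptors, 3 co-receptors, 7 secreted inhibitors, the Dickkopf-like gene Dkkl1, 6 cytoplasmic proteins and 3 nuclear factors.

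Whole retinas were taken at postnatal day 2 (P2), P4, P6 and P8 from mice of a C57BL/6 background that were homozygous either for the normal alleles (wt) or for the linked retinal degeneration 1 and light ear mutations (rd1/le, called rd1). The rd1 mutation lies in Pde6b, the beta subunit of the rod phosphodiesterase, so the comparison asks what differs in the retina before rods die, and the linked light ear mutation was carried by each rd1 mouse as well. Each of the 32 samples was RNA from a pool of 8 to 14 retinas on 1 MOE430A array, with 4 arrays for each genotype and age. Levels are Robust Multichip Average values (RMA, log2), in which a difference of 1 is a 2-fold change, and values listed for a group run from replicate 1 to replicate 4 with no order implied.

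Wnt proteins are secreted ligands that bind Frizzled receptors and the co-receptors Lrp5 and Lrp6. In the canonical branch the signal passes through Dishevelled, releases beta-catenin from a complex built on Axin, and lets beta-catenin act in the nucleus with factors of the TCF and LEF family. Norrin, the product of Ndp, is unrelated to the Wnt proteins in sequence but uses the same route: it binds Fzd4 with Lrp5 and Tspan12, and this complex is needed for the retina to form its blood vessels. Wnt signalling is also known for its part in setting up the optic cup, its margin and the progenitor pool.

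To place these genes before their levels are given, the promoters of 5 members that carry the results are shown: Ndp and Tspan12 of the Norrin complex, Axin2, the widely used readout of beta-catenin, and Fzd7 and Fzd5, receptors that fell with age. They come from a RefSeq-derived set of promoters on the mouse build GRCm38.p6, and that set, not the build, held only 35 of the 49 members. Each runs from 250 bases before to 50 after a start that the source lists, 5′ to 3′ on the gene's strand. For Tspan12 and Axin2 the listed start lies inside the annotated gene and not at its outer end. Ndp lies at chrX:16911725-16912024 on the minus strand, Fzd7 at chr1:59481897-59482196 on the plus strand, Fzd5 at chr1:64737701-64738000 on the minus strand, Tspan12 at chr6:21852484-21852783 on the minus strand and Axin2 at chr11:108920099-108920398 on the plus strand. Capitals mark letters of the TCF and LEF recognition sequence, searched as CTTTG followed by AA, AT, TA or TT on both strands.
Ndp: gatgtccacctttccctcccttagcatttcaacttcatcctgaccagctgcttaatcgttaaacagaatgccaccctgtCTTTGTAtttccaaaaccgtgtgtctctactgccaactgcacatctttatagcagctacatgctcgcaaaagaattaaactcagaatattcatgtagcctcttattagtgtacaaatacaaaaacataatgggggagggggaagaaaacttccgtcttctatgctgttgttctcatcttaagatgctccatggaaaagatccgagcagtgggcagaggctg
Fzd7: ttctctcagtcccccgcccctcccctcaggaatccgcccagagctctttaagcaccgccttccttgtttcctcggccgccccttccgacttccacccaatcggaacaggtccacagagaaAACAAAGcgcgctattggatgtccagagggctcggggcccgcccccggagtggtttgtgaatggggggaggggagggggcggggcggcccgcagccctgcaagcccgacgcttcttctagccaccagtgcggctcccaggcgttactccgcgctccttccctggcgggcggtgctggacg
Fzd5: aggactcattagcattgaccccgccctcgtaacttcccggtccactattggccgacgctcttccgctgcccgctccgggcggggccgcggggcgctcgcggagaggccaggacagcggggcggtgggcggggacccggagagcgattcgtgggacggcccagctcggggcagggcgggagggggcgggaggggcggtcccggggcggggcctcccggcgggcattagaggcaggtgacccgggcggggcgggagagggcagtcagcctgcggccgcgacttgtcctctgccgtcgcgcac
Tspan12: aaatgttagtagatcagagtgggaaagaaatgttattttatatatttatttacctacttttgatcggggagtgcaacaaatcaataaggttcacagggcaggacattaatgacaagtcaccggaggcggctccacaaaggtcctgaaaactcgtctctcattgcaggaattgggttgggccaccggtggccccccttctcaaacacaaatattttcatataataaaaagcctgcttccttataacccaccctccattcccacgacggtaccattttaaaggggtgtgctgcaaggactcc
Axin2: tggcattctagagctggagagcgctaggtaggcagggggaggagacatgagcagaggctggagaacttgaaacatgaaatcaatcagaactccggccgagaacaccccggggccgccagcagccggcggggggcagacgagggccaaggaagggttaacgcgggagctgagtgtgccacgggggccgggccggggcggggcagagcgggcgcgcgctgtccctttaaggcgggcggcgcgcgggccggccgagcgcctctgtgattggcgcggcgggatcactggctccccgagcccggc
The windows of Ndp and Fzd7 each held 1 match, which began 171 and 130 bases before the start, and these letters were not in the windows shown for Fzd5, Tspan12 and Axin2. Over all 35 members, 8 genes had a match at 1 or more of their starts (22.9%): Ndp, Fzd7, Tcf7l2, Wnt5b, Wnt11, Wnt3, Dkk1 and Lef1. Of all 27025 genes in the same source, 18.9% had a match, and of all 32851 windows of 300 bases, 16.9% had one. A match is a run of letters and was not tested as a binding site.

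Whether the arrays fit their labels was looked at in Pde6b. The highest rd1 array lay below the lowest wt array at P4 (8.65 to 9.80 against 11.65 to 12.38), at P6 (10.52 to 10.92 against 13.30 to 13.38) and at P8 (10.96 to 12.04 against 13.57 to 13.91). At P2, 4 of 8 arrays had Pde6b at odds with their label. The wt replicates 1 and 2 read 6.96 and 7.19, near the 6.84 of rd1 replicate 4, and rd1 replicates 2 and 3 read 9.18 and 9.24, near the 9.42 of wt replicate 3. Differences between genotypes at P2 are therefore differences between arrays labelled wt and rd1, and differences between ages were taken over the mean of both genotypes. The tissue read as retina: the summed linear level of 10 rod markers covered 11211 to 14893 at P2 and 62472 to 113073 at P8, and that of 10 retinal progenitor markers 27608 to 39226 at P2 and 4183 to 5609 at P8. At P8 the sum of 13 lens markers ran from 1452 to 13924 on the wt arrays and from 4381 to 61393 on the rd1 arrays. Array medians lay between 6.54 and 6.76.

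A probe set can read above 0 with no target present. The array carries 27 probe sets for Bacillus transcripts, for which the sources used here name no added RNA, and their readings reached up to 4.89, a value used below as the top of the control range. The mean of every group lay within this range for 25 of the 49 members, and 24 members rose above it in 1 group or more. The ligands Wnt1, Wnt2, Wnt2b, Wnt4, Wnt6, Wnt7a, Wnt8a, Wnt8b, Wnt9a, Wnt9b, Wnt10a, Wnt10b, Wnt11, Wnt16 and Ndp were in the control range, as were the receptor Fzd1, the co-receptor Lrp5, the inhibitors Dkk1, Dkk2, Dkk4, Sfrp5 and Wif1, Dkkl1, the Dishevelled gene Dvl3 and the nuclear factor Lef1. Above it were the ligands Wnt3, Wnt3a, Wnt5a, Wnt5b and Wnt7b, 8 Frizzled receptors, Lrp6 and Tspan12, Sfrp1 and Sfrp4, Dvl1, Dvl2, Axin1, Axin2 and Ctnnb1, and Tcf7l1 and Tcf7l2. A reading within the control range does not show that a gene was silent, since probe sets differ in how well they bind.

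Between P2 and P8, 5 of the 9 receptors, and both nuclear factors above the control range, fell, Fzd2 the most. Fzd7 and Tcf7l1 were each called lower on 1 of 2 probe sets. Fzd4, Fzd6, Fzd9, Tspan12 and Axin2 rose by smaller amounts. Of these, Fzd4, Fzd6 and Axin2 were each called higher on 1 of 2 probe sets. By limma, with Benjamini-Hochberg adjusted p under 0.05 over all 22626 probe sets, 17 of the 49 members were lower at P8 than at P2 (23.5% of all probe sets were) and 6 were higher (21.6% of all probe sets). Their median difference was -0.03, against -0.02 for all probe sets. Among the 24 members above the control range, 14 fell and 5 rose, with a median of -0.36 against -0.01 for all probe sets above that range, of which 59.9% were called in either direction. Members and other probe sets alike counted as above the range through their highest group alone, which can be the age they fell from. Fzd5 entered only through the rd1 arrays of P2 (mean 5.02), so these counts are no test of a fall. By role, 5 of 9 receptors fell and 3 rose, 2 of 3 nuclear factors and 3 of 6 cytoplasmic members fell, and 4 of 20 ligands fell and 1 rose.

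**Figure D1:**
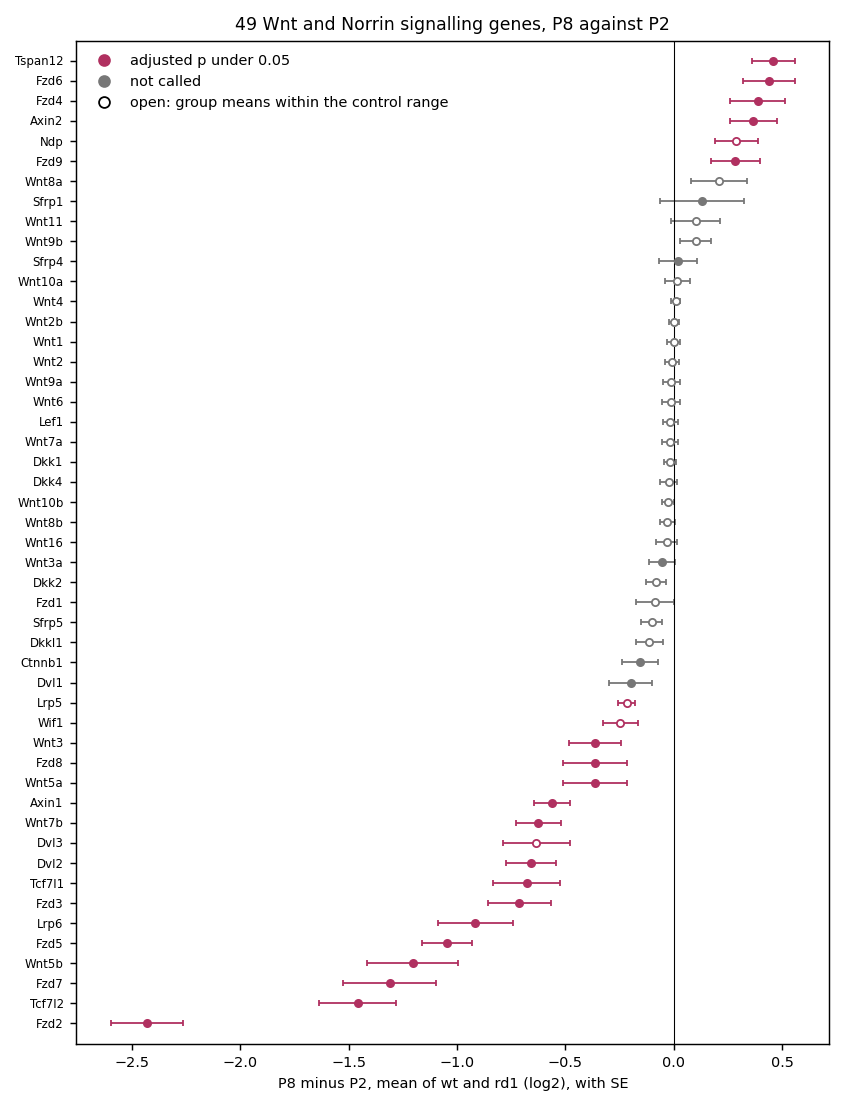
Difference between P8 and P2 (log2, mean of wt and rd1, with SE) for the 49 genes, ordered by size. Filled points rose above the control range in at least 1 group, open points did not, and coloured points passed adjusted p under 0.05; Fzd2 lies farthest to the left at -2.43 and Tspan12 farthest to the right at 0.46.

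Fzd2, a Frizzled receptor, fell from P4 to P6 and from P6 to P8, and lay highest at P2. Fzd2 at P2 read 7.60, 7.45, 8.32 and 8.18 in wt and 8.26, 7.79, 7.53 and 8.29 in rd1. Fzd2 at P4 read 7.53, 7.33, 7.11 and 7.08 in wt and 7.33, 7.56, 7.08 and 7.24 in rd1. The 8 arrays of P4 overlapped the lower arrays of P2. Fzd2 at P6 read 6.37, 6.23, 6.21 and 6.78 in wt and 6.75, 6.54, 6.41 and 6.51 in rd1. Fzd2 at P8 read 5.70, 5.47, 5.30 and 4.70 in wt and 5.75, 5.87, 6.21 and 4.98 in rd1. Each array of P6 lay below each array of P4, and each array of P8 lay below each array of P6. The highest of P8, rd1 replicate 3 at 6.206, was just under the lowest of P6, wt replicate 3 at 6.208. The log2 difference between P8 and P2 was -2.43 ± 0.17 (SE, adjusted p = 3.82e-13) by limma, a 5.40-fold fall. It fell by 0.65 from P2 to P4, by 0.81 from P4 to P6 and by 0.98 from P6 to P8, steps that share arrays. The first of these was -0.31 and lost its call (adjusted p = 0.211 by limma) without the 4 arrays of P2 on which Pde6b fitted its label. Its other 2 probe sets fell by 2.08 and 2.51. From P4 to P8 the difference was -1.97 ± 0.24 (SE, adjusted p = 1.65e-07) in wt and -1.60 ± 0.24 (SE, adjusted p = 5.61e-06) in rd1 by limma.

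Fzd7, a receptor that signals through beta-catenin and through planar polarity, lay lower at each age after P2. Fzd7 at P2 read 5.32, 5.55, 5.19 and 6.10 in wt and 6.71, 4.71, 5.98 and 6.24 in rd1. Fzd7 at P4 read 5.09, 5.35, 4.81 and 4.69 in wt and 5.38, 4.02, 4.56 and 4.72 in rd1. Array to array spread was wide at P2, and the P4 arrays reached into its lower part. Fzd7 at P6 read 3.94, 4.43, 4.27 and 4.37 in wt and 4.75, 3.74, 4.19 and 3.73 in rd1. Fzd7 at P8 read 4.09, 4.44, 4.50 and 4.37 in wt and 4.03, 4.55, 4.70 and 4.62 in rd1. From P6 onward all but 1 array lay at or below 4.70, and every array lay within the control range, so the fall ended at the level of the controls. The fall from P2 to P8 was -1.31 ± 0.22 (SE, adjusted p = 8.66e-06) by limma (2.48-fold), with -0.90 from P2 to P4 and -0.65 from P4 to P6. Without the 4 arrays of P2 on which Pde6b fitted its label, the step from P2 to P4 was -0.56 and lost its call (adjusted p = 0.0778 by limma). Its second probe set read in the control range and differed by -0.02.

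Fzd5, a receptor needed for eye development, was near the top of the control range at P2 and inside it afterwards. Fzd5 at P2 read 4.76, 4.58, 4.51 and 4.43 in wt and 4.28, 5.02, 5.43 and 5.36 in rd1. Fzd5 at P4 read 3.84, 3.78, 3.77 and 4.26 in wt and 4.38, 3.84, 3.72 and 4.00 in rd1. All but 1 array of P2 exceeded all arrays of P4. Fzd5 at P6 read 3.55, 3.75, 3.71 and 3.81 in wt and 3.79, 3.78, 3.88 and 3.84 in rd1. Fzd5 at P8 read 3.72, 3.73, 3.76 and 3.76 in wt and 3.74, 3.81, 3.82 and 3.67 in rd1. These 16 arrays covered only 3.55 to 3.88. The difference between P8 and P2 was -1.04 ± 0.12 (SE, adjusted p = 9.32e-09) by limma, of which -0.84 came between P2 and P4.

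Tcf7l2, which recruits beta-catenin to DNA, had the largest fall of the nuclear members. Tcf7l2 at P2 read 7.29, 7.54, 7.22 and 6.93 in wt and 7.30, 6.55, 7.20 and 6.90 in rd1. Tcf7l2 at P4 read 6.72, 6.23, 6.03 and 6.10 in wt and 5.90, 6.61, 6.12 and 6.22 in rd1. Only 1 array of P2, rd1 replicate 2 at 6.55, lay within the range of P4. Tcf7l2 at P6 read 5.46, 5.84, 6.02 and 5.47 in wt and 6.22, 5.86, 5.79 and 5.33 in rd1. Tcf7l2 at P8 read 5.64, 5.36, 5.66 and 5.72 in wt and 5.66, 4.75, 6.33 and 6.15 in rd1. For this gene the rd1 arrays of P8 spread from 4.75 to 6.33, across all of the wt arrays of P6 and P8. By limma the difference between P8 and P2 was -1.46 ± 0.18 (SE, adjusted p = 5.9e-08) (2.75-fold), and another of its probe sets gave -1.47. Tcf7l1, which mostly acts as a repressor, differed by -0.68 ± 0.15 (SE, adjusted p = 0.000552) by limma, and its second probe set by -0.09.

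Wnt5b, a ligand linked to signalling without beta-catenin, held its level to P4 and then fell. Wnt5b at P2 read 6.33, 5.93, 6.47 and 6.60 in wt and 6.64, 6.42, 5.95 and 7.29 in rd1. Wnt5b at P4 read 6.96, 6.36, 6.28 and 6.36 in wt and 6.40, 6.53, 6.44 and 6.44 in rd1. These ages overlapped throughout. Wnt5b at P6 read 6.21, 4.66, 5.36 and 6.44 in wt and 5.67, 5.57, 6.05 and 6.36 in rd1. Wnt5b at P8 read 4.87, 5.12, 5.58 and 5.02 in wt and 5.57, 4.93, 5.05 and 5.86 in rd1. Every array of P8 lay below every array of P4, and the P6 arrays spanned both. P8 differed from P2 by -1.20 ± 0.21 (SE, adjusted p = 1.99e-05) by limma (2.30-fold), with 0.02 from P2 to P4 and -0.68 from P4 to P6. Its second probe set fell by 0.33.

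**Figure D2:**
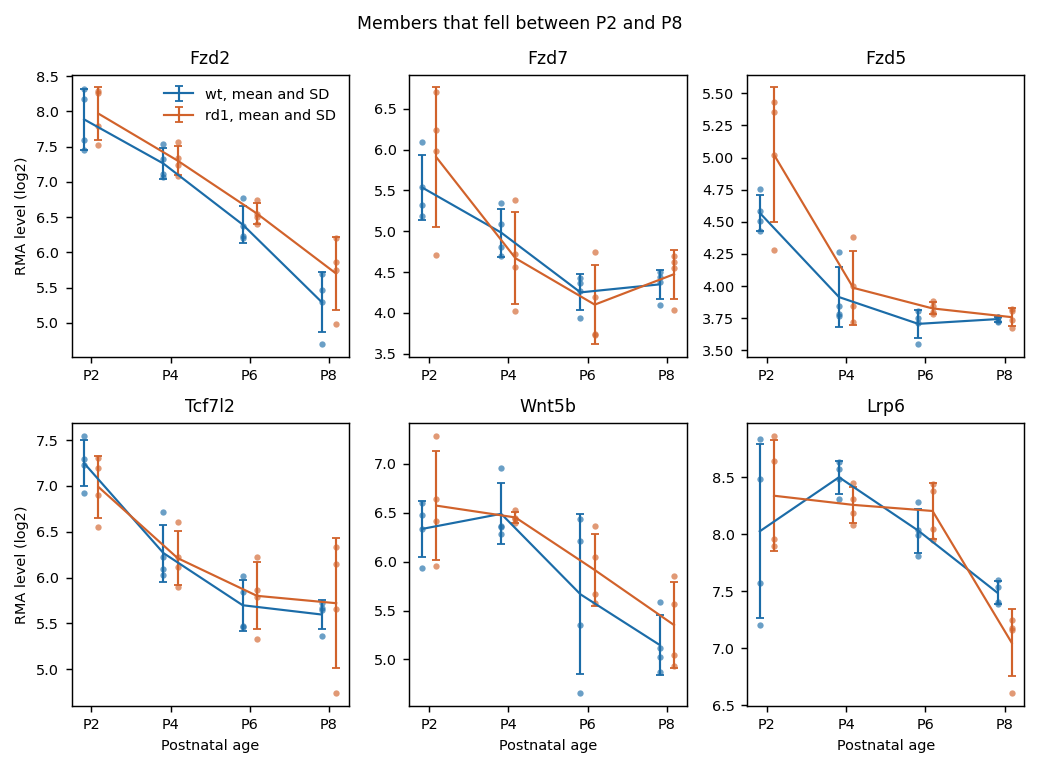
RMA level (log2) against postnatal age for 5 members that fell by 1 or more between P2 and P8, and for Lrp6; points are arrays, lines join the mean of 4 arrays and bars are the SD, for wt and rd1. The means of Fzd2 went down at each age, those of Fzd7, Fzd5 and Tcf7l2 mostly before P6, and Wnt5b and Lrp6 after P4.

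Lrp6, the co-receptor of the canonical branch, fell late. Lrp6 at P2 read 8.48, 8.84, 7.58 and 7.20 in wt and 7.95, 8.64, 8.86 and 7.89 in rd1. Lrp6 at P4 read 8.57, 8.30, 8.63 and 8.48 in wt and 8.45, 8.31, 8.18 and 8.08 in rd1. Its arrays of P2 covered 7.20 to 8.86, and those of P4 8.08 to 8.63. Lrp6 at P6 read 8.04, 7.99, 8.28 and 7.81 in wt and 8.44, 8.38, 7.95 and 8.04 in rd1. Lrp6 at P8 read 7.54, 7.60, 7.41 and 7.39 in wt and 7.17, 7.16, 7.25 and 6.61 in rd1. All arrays of P8 lay below all arrays of P6. The step from P6 to P8 was -0.85 ± 0.17 (SE, adjusted p = 0.000346) by limma. Between P8 and P2 the difference was -0.91, and it was -0.39 without the 4 arrays of P2 on which Pde6b went against the label and -1.44 without the other 4, called in each case. Its second probe set gave -0.14 between P8 and P2 and was not called (adjusted p = 0.517 by limma), so the fall between these ages rests on 1 of the 2 probe sets. On that second probe set the arrays of P6 covered 6.26 to 7.48 and those of P8 covered 6.03 to 6.37, so it was also lower at P8 than at P6.

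The other members above the control range that fell were read in less detail. Wnt7b, a ligand of the canonical branch, went from 8.11 ± 0.22 at P2 to 7.49 ± 0.26 at P8 (SD, n = 8 arrays), most of it before P4 (-0.51). Wnt3 and Wnt5a, the latter a ligand of planar polarity signalling, both differed by -0.36, and Wnt5a first rose by 0.42 from P4 to P6 and then fell by 0.66 to P8. Fzd3, a receptor of axon guidance, differed by -0.71 ± 0.14 (SE, adjusted p = 0.000145) by limma, and 2 of its 3 other probe sets fell as well. Fzd8, a receptor of the canonical branch, differed by -0.36. Dvl2, which relays the receptor's signal, went from 8.21 ± 0.24 to 7.55 ± 0.13, and Axin1, the scaffold of the complex that marks beta-catenin for removal, from 9.04 ± 0.15 to 8.48 ± 0.19 (SD, n = 8 arrays). The calls of Fzd8, Wnt3 and Wnt5a were each lost when the 4 arrays of P2 on which Pde6b fitted its label were left out, with differences of -0.07, -0.08 and -0.25. In the same fit Fzd3 was at -0.35 and Tcf7l1 at -0.38, both still called. Fzd8 and Wnt5a also lost theirs in 8 and 9 of the 16 fits that each left out 1 array, and Wnt3 without wt replicate 3 (-0.26) or rd1 replicate 4 (-0.28) of P2. Within the control range Dvl3 differed by -0.63, Wif1 by -0.25 and Lrp5 by -0.22, all called.

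Fzd6, a receptor of planar polarity, and Fzd9 were the receptors that rose beside Fzd4. Fzd6 went from 5.86 ± 0.12 at P2 to 6.30 ± 0.32 at P8 (SD, n = 8 arrays), a difference of 0.44 ± 0.12 (SE, adjusted p = 0.00313) by limma. The other probe set of Fzd6 was in the control range, differed by 0.03 and was not called (adjusted p = 0.731 by limma). Fzd9 differed by 0.28 ± 0.11 (SE, adjusted p = 0.04) by limma, and lost its call in 7 of the 16 fits that each left out 1 array. Dvl1 (-0.20), Wnt3a (-0.05), Sfrp1 (0.13) and Sfrp4 (0.02) were not called, and the 3 other probe sets of Sfrp1, a secreted inhibitor, gave 0.02, -0.28 and -0.83.

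Markers of several cell types moved over the same ages, where 23.5% of all probe sets fell and 21.6% rose. All 10 progenitor markers that were measured fell between P2 and P8, with a median of -2.28. All 10 rod markers rose with a median of 3.61, 8 of 9 bipolar cell markers with 2.66 and 14 of 18 endothelial markers with 1.25. Against these, 1 bipolar cell marker and 1 endothelial marker fell. The summed linear level of the endothelial markers did not rise with their median: it covered 2900 to 3886 at P2 and 2058 to 4240 at P8. Of tissue around the retina, 11 of 13 lens markers rose with a median of 3.14 and 5 of 9 markers of the pigment epithelium with 0.91, and the summed level of the latter was 671 to 1834 at P2 and 3170 to 10388 at P8. The part of these shifts in the members' differences was not tested. In RNA from whole retinas, fewer cells of a type and less RNA per cell cannot be told apart.

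Of the 4 parts of the Norrin complex, Fzd4 and Tspan12 read above the control range and Ndp and Lrp5 within it. Ndp, the ligand, stayed close to the top of the control range. Ndp at P2 read 4.39, 4.46, 4.60 and 4.02 in wt and 4.61, 4.35, 4.54 and 4.38 in rd1. Ndp at P4 read 4.28, 4.85, 4.53 and 4.53 in wt and 4.59, 4.97, 4.75 and 4.47 in rd1. Most arrays of both ages overlapped. Ndp at P6 read 4.51, 4.65, 4.59 and 4.50 in wt and 4.90, 4.75, 4.47 and 4.67 in rd1. Ndp at P8 read 4.56, 4.80, 4.69 and 5.19 in wt and 4.58, 4.64, 4.69 and 4.49 in rd1. Only the fourth wt array of P8 went above 5. The difference between P8 and P2 was 0.29 ± 0.10 (SE, adjusted p = 0.0177) by limma, and it passed the threshold neither without the 4 arrays of P2 that went against their label (adjusted p = 0.0565) nor without the other 4 (0.0662). It was also not called without wt replicate 4 of P2 (0.23) or of P8 (0.23).

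Fzd4, the receptor of Norrin, read above the control range on all but 1 array. Fzd4 at P2 read 4.61, 5.69, 5.63 and 5.16 in wt and 5.33, 5.06, 5.54 and 5.27 in rd1. Fzd4 at P4 read 5.66, 5.39, 5.47 and 5.47 in wt and 5.37, 5.65, 5.48 and 5.34 in rd1. The lowest array of the series was wt replicate 1 of P2. Fzd4 at P6 read 5.92, 5.91, 5.49 and 6.14 in wt and 5.33, 5.44, 5.62 and 5.53 in rd1. Fzd4 at P8 read 5.89, 5.48, 5.88 and 5.48 in wt and 5.49, 5.88, 5.39 and 5.88 in rd1. P8 lay above P2 by 0.39 ± 0.13 (SE, adjusted p = 0.0146) by limma (1.31-fold), with overlapping arrays. Its second probe set, in the control range, differed by -0.21, and with the mean of both the difference was 0.09 and was not called. At P6 all but 1 of the wt arrays exceeded all 4 rd1 arrays, and rd1 minus wt was -0.39 ± 0.18 (SE, adjusted p = 0.601) by limma.

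Tspan12, the tetraspanin that strengthens the Norrin signal, rose between P6 and P8. Tspan12 at P2 read 6.26, 6.37, 6.30 and 6.23 in wt and 6.38, 6.49, 6.33 and 6.10 in rd1. Tspan12 at P4 read 6.30, 5.98, 6.69 and 6.21 in wt and 6.23, 6.08, 6.39 and 6.26 in rd1. These ages differed by -0.04. Tspan12 at P6 read 6.17, 6.28, 6.21 and 6.32 in wt and 6.28, 6.32, 6.34 and 6.40 in rd1. Tspan12 at P8 read 6.77, 6.79, 7.12 and 7.11 in wt and 6.52, 6.78, 6.84 and 6.19 in rd1. All 4 wt arrays of P8 lay above every wt array of P2, P4 and P6, and rd1 replicate 4 of P8 lay within the range of the earlier ages. The step from P6 to P8 was 0.48 ± 0.10 (SE, adjusted p = 0.000431) by limma. From P4 to P8 it was 0.65 ± 0.14 (SE, adjusted p = 0.000615) in wt and 0.34 ± 0.14 (SE, adjusted p = 0.0606) in rd1. The change in rd1 minus that in wt was -0.31 ± 0.20 (SE, adjusted p = 0.911), so a difference between the genotypes' changes was not shown.

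Lrp5, the co-receptor of Norrin, read far down in the control range. Lrp5 at P2 read 3.25, 3.09, 3.23 and 3.16 in wt and 2.83, 2.97, 2.88 and 2.98 in rd1. Lrp5 at P4 read 2.77, 2.71, 2.80 and 2.81 in wt and 2.72, 2.89, 2.81 and 2.88 in rd1. All 4 arrays of P2 labelled rd1 lay below all 4 labelled wt, and the wt arrays of P4 were lower again. Lrp5 at P6 read 2.74, 2.85, 2.77 and 2.91 in wt and 2.80, 2.82, 2.91 and 2.97 in rd1. Lrp5 at P8 read 2.67, 2.77, 2.80 and 2.79 in wt and 2.79, 2.94, 2.98 and 2.91 in rd1. From P4 on the 24 arrays covered 2.67 to 2.98. P8 differed from P2 by -0.22 ± 0.04 (SE, adjusted p = 4.93e-05) by limma, a change of 1.16-fold at a level where probe sets of no target also read.

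**Figure D3:**
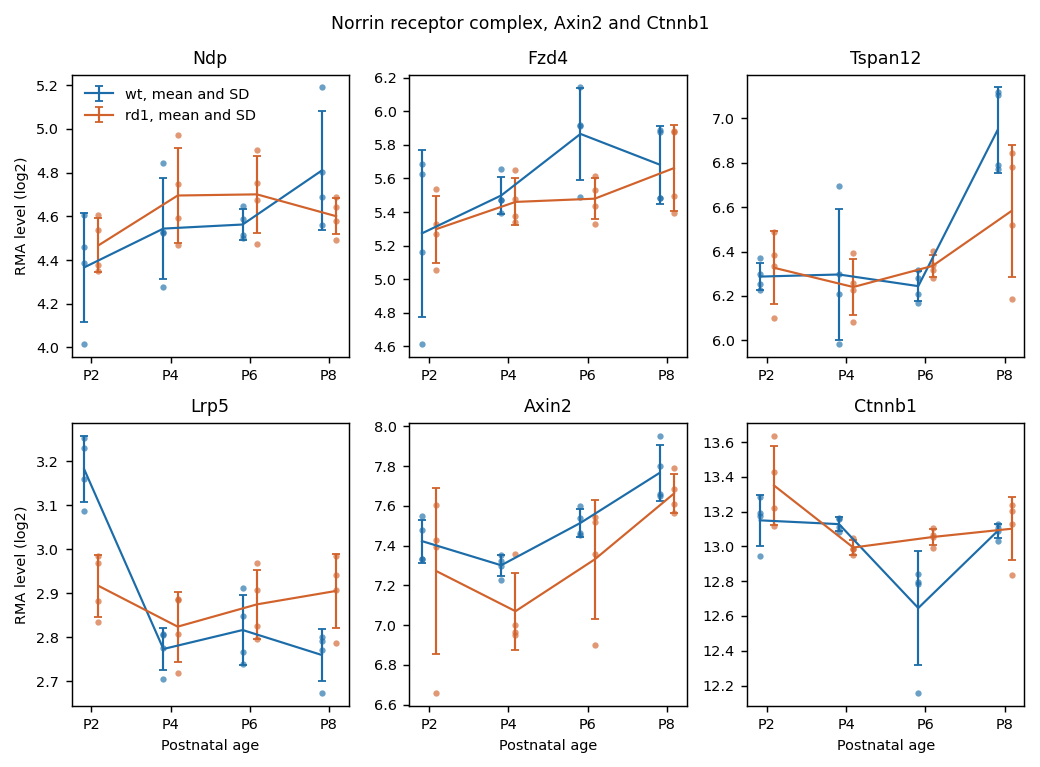
RMA level (log2) against postnatal age for the Norrin complex (Ndp, Fzd4, Tspan12 and Lrp5), Axin2 and Ctnnb1; points are arrays, lines join the mean of 4 arrays and bars are the SD, and each panel has its own scale. Tspan12 rose after P6, Axin2 rose between P4 and P8 in both genotypes, and the wt and rd1 arrays of Ctnnb1 separated at P4 and, the other way round, at P6.

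Axin2, a scaffold of the destruction complex whose own transcription beta-catenin drives, rose between P4 and P8. Axin2 at P2 read 7.33, 7.33, 7.55 and 7.48 in wt and 7.43, 7.61, 7.39 and 6.66 in rd1. Axin2 at P4 read 7.35, 7.23, 7.30 and 7.32 in wt and 6.97, 7.00, 6.95 and 7.36 in rd1. Apart from rd1 replicate 4 at 6.66, the arrays of P2 covered 7.33 to 7.61, and those of P4 covered 6.95 to 7.36. Axin2 at P6 read 7.54, 7.60, 7.45 and 7.46 in wt and 7.36, 7.52, 7.54 and 6.90 in rd1. Axin2 at P8 read 7.80, 7.95, 7.66 and 7.65 in wt and 7.56, 7.79, 7.61 and 7.68 in rd1. Each wt array of P8 exceeded each wt array of the other ages, and rd1 was alike against P4 and P6. The rise from P4 to P8 was 0.47 ± 0.15 (SE, adjusted p = 0.0213) in wt and 0.59 ± 0.15 (SE, adjusted p = 0.00377) in rd1 by limma. Between P2 and P8 it was 0.37 ± 0.11 (SE, adjusted p = 0.00578). The other probe set of Axin2 was in the control range and differed by 0.06.

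Ctnnb1, beta-catenin itself, was high on every array. Ctnnb1 at P2 read 13.18, 13.19, 13.29 and 12.94 in wt and 13.63, 13.12, 13.22 and 13.43 in rd1. Ctnnb1 at P4 read 13.16, 13.16, 13.11 and 13.08 in wt and 13.05, 12.95, 12.99 and 12.99 in rd1. The highest rd1 array of P4 fell just short of the lowest wt array of that age. Ctnnb1 at P6 read 12.84, 12.78, 12.80 and 12.16 in wt and 13.11, 13.06, 13.05 and 12.99 in rd1. Ctnnb1 at P8 read 13.09, 13.13, 13.03 and 13.10 in wt and 12.84, 13.13, 13.24 and 13.21 in rd1. The rd1 arrays of P6 all exceeded the wt arrays of that age, and at P8 the genotypes overlapped. rd1 minus wt was -0.13 at P4 and 0.41 ± 0.12 (SE, adjusted p = 0.18) at P6 by limma, where it was 0.25 without wt replicate 4 (12.16), and the two-sided exact permutation test gave p = 0.0286 at both ages, the smallest that 4 arrays against 4 allow. The change of the difference from P4 to P6 was 0.54 ± 0.16 (SE, adjusted p = 0.375), a test chosen after its values were seen. Its other probe sets gave 0.57 and 0.36 at P6, not called, with overlapping arrays. Between P8 and P2 the probe set used for Ctnnb1 differed by -0.16 and was not called. The other probe sets both gave -0.38 and were called lower (adjusted p = 0.0199 and 0.0167 by limma). With the mean over all probe sets of the gene, P4 differed from P2 by -0.46 (adjusted p = 0.000801 by limma).

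Lef1, a nuclear partner of beta-catenin that is itself switched on by Wnt in many tissues, read low in the control range. Lef1 at P2 read 2.07, 2.09, 2.15 and 2.07 in wt and 2.05, 2.15, 2.09 and 2.21 in rd1. Lef1 at P4 read 1.99, 1.92, 2.03 and 2.02 in wt and 1.94, 2.10, 2.01 and 2.07 in rd1. The P4 arrays were slightly lower in both genotypes. Lef1 at P6 read 1.98, 2.10, 2.02 and 2.13 in wt and 2.05, 2.07, 2.16 and 2.24 in rd1. Lef1 at P8 read 1.96, 2.04, 2.07 and 2.03 in wt and 2.04, 2.17, 2.28 and 2.17 in rd1. All 32 arrays lay between 1.92 and 2.28. P8 differed from P2 by -0.02 ± 0.04 (SE, adjusted p = 0.752) by limma, which did not pass the threshold.

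From P2 to P4, 25 of the 49 members were called, all lower, against 24.8% of all probe sets that were lower, and 15 of the 25 were in the control range. The count depended on the arrays of P2 and on the scaling, with 7 called without the 4 arrays on which Pde6b fitted its label and 12 after median centring, which also gave 22 from P4 to P6. Over all probe sets the calls from P4 to P6 were 4502, and 8817 after median centring. From P2 to P4 they were 8888, with 5590 without those 4 arrays and 6348 after median centring. Probe sets in the control range shifted as a whole over this step, with a median of -0.11 over all 7452 of them and -0.10 over the 25 members there, so members in that range moved with other probe sets that read at the level of the controls. The 10 called members above it were Axin1, Dvl2, Fzd2, Fzd3, Fzd5, Fzd7, Tcf7l1, Tcf7l2, Wnt3 and Wnt7b, and the median of the 24 members above the range was -0.18, against 0.02 for all probe sets above it. A member could count as above it through P2 alone, as Fzd5 did. From P4 to P6 a count of 4 members was called, against 19.9% of all probe sets: Fzd2, Wnt5b and Fzd7 fell and Wnt5a rose. From P6 to P8 it was 7 members, against 29.0% of all probe sets: Fzd2, Lrp6, Wnt5a and Axin1 fell, and Tspan12, Ctnnb1 and Axin2 rose. Ctnnb1 lost this call without wt replicate 4 of P6 (0.16), and the calls of Axin1 and Axin2 were lost in 10 and 9 of the 16 fits that each left out 1 array. From P4 to P6 the calls of Wnt5a and Fzd7 were lost in 9 and 6 such fits, and that of Wnt5b without wt replicate 1 of P4 (-0.60) or wt replicate 2 of P6 (-0.51). Neighbouring steps share the arrays of 1 age. Within a genotype and with no array of P2, 7 members were called from P4 to P8 in wt (27.6% of all probe sets) and 10 in rd1 (30.5% of all probe sets). In wt, Fzd2, Wnt5b, Lrp6, Tcf7l2 and Axin1 fell, and Tspan12 and Axin2 rose. Tcf7l2 lost this call in 7 of 8 fits that each left out 1 array, and Axin2 without wt replicate 2 of P4 (0.44) or of P8 (0.40). In rd1, Fzd2, Lrp6 and Wnt5b fell and Axin2 rose, and the remaining 6 (Wnt4, Fzd1, Wnt2b, Wnt8a, Lef1 and Wnt9b) rose within the control range. The change in rd1 minus the change in wt was called for 0 of 49 members by limma (0.0221% of all probe sets), and 1 member had an unadjusted p under 0.05 (4.46% of all probe sets).

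Between genotypes no member passed the threshold at any age in the model over all 32 arrays. By limma 0 of 49 members were called at P2 (0.0398% of all probe sets), P4 (0.00442%), P6 (0.208%) and P8 (0.212%), and 0 for the mean of P4, P6 and P8 (0.203%). Members with an unadjusted p under 0.05 numbered 2 at P2 (7.96% of all probe sets), 0 at P4 (2.99%), 3 at P6 (8.10%), 15 at P8 (18.9%) and 17 for that mean (20.9%). The smallest adjusted p were 0.107 for Lrp5 at P2, 0.126 for Fzd1 at P8 and 0.18 for Ctnnb1 at P6. Lrp5 at P2 (-0.27) did pass in 7 of 18 alternatives by limma, with a further quantile normalization at -0.30 (adjusted p = 1.7e-05) and without the 4 arrays on which Pde6b went against the label at -0.29 (adjusted p = 0.0445). Without those 4 arrays 1278 of all probe sets were called at P2, against 9 in the main fit. For the test of the change from P4 to P6 between genotypes, 0 members were called as well, with 0.0177% of all probe sets and 1 member at an unadjusted p under 0.05 (6.27% of all probe sets).

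Arrays of the genotypes that did not overlap were few up to P6. At P2 no member had all rd1 arrays higher (1.57% of all probe sets did), and Lrp5 had all lower (1.18%). At P4 Tcf7l1 was higher (1.99% of all probe sets) and Ctnnb1 lower (1.05%). At P6 Ctnnb1 was higher (2.32%) and no member lower (2.49%). At P8 Dkk4, Dkkl1, Fzd1, Fzd3, Sfrp4, Wnt1, Wnt2b, Wnt3a, Wnt4, Wnt8a and Wnt16 were higher on all rd1 arrays, 11 of 49 against 10.2% of all probe sets, and Lrp6 was lower, against 2.34%. Of the 11, 8 lay in the control range, and 22.8% of all probe sets of that range were higher on all rd1 arrays of P8, against 3.93% of those above it.

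The dim probe sets as a whole read higher on the rd1 arrays of P8. The median of rd1 minus wt at P8 was 0.12 for probe sets with a mean level below 3 and 0.16 for those from 3 to 5, and -0.03 for those from 7 to 9 and -0.02 for those from 9 up. The median of the 25 members in the control range was 0.12. Above the control range, Fzd3 differed by 0.37 at P8 with wt arrays at 5.79 to 6.06 and rd1 arrays at 6.24 to 6.46. On 2 other probe sets of Fzd3 the genotypes overlapped at P8. Their wt arrays lay at 5.29 to 5.40 and 3.80 to 4.37, and their rd1 arrays at 5.06 to 5.76 and 4.00 to 4.50. On the remaining probe set, in the control range, all rd1 arrays lay above all wt arrays (2.88 to 3.01 against 2.54 to 2.87). Lrp6 differed by -0.44, with wt arrays at 7.39 to 7.60 and rd1 arrays at 6.61 to 7.25, and its second probe set gave 0.13. When arrays were weighted by their quality, 16 members were called at P8, all of them higher in rd1 and all in the control range, together with 3506 of all probe sets.

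**Figure D4:**
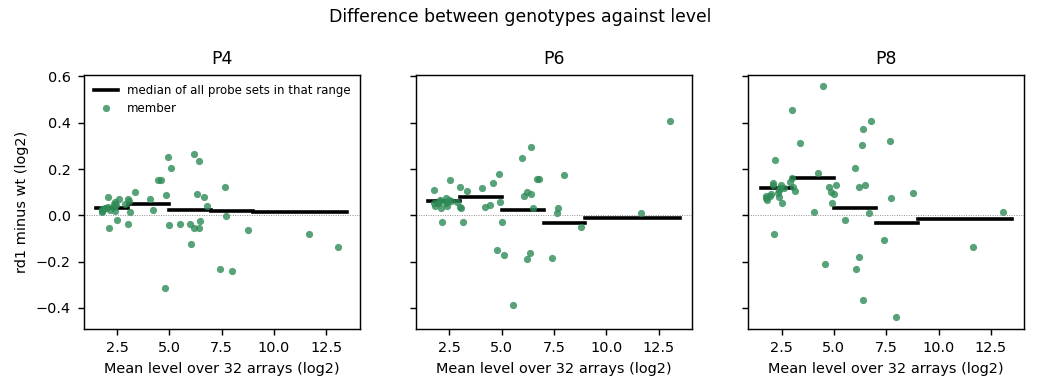
Difference between rd1 and wt (log2) against the mean level over 32 arrays (log2) for the 49 genes at P4, P6 and P8; black bars are the median over all probe sets of that range of levels. At P8 the bars lie at 0.12 and 0.16 for the dim probe sets, where most members lie, and the single point near 13 that stands high at P6 is Ctnnb1 at 0.41.

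Other genes of the pathway were read from 6 textbook lists that hold no member, to be read beside the 23.5% of all probe sets that fell and the 21.6% that rose. Between P2 and P8, 7 of the 11 measured co-receptor and planar polarity genes fell and 1 rose, with a median of -0.42. Prickle1 rose by 2.50, and Vangl2 and Celsr2, transmembrane proteins of planar polarity, both fell by 1.21. Of 19 nuclear partners of beta-catenin, 10 fell and 2 rose, with a median of -0.36: the corepressors Tle3 and Tle4 fell by 1.55 and 0.75, and Ctnnbip1, an inhibitor of beta-catenin, fell by 1.05. Of 20 genes of the destruction complex and the cytoplasm, 7 fell and 3 rose (median -0.17), with Csnk1e, Frat2 and Gsk3b falling by 1.17, 1.41 and 1.08. Of 12 genes of Wnt secretion and extracellular control, 5 rose and 2 fell (median -0.02): Lgr5, a receptor of R-spondins, rose by 3.85, Frzb, a secreted inhibitor, by 3.92, Apcdd1, a membrane inhibitor, by 1.75, and Porcn, which lipidates Wnt proteins, by 1.09. Of 18 genes known to respond to beta-catenin, 3 rose and 6 fell (median -0.05), among them Ccnd1, a cyclin of dividing progenitors, which fell by 4.62, and Lgr5 and Apcdd1, which rose. In the control range on all arrays were 8 of these 18, 5 of the 12 genes of secretion and 3 of the 11 of planar polarity.

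Among endothelial genes known to respond to Norrin, 1 was called between the genotypes. Of 9 measured, 5 rose, 1 fell and 3 were not called between P2 and P8, with a median of 0.27 against -0.02 for all probe sets, and 6 of the 9 lay in the control range on all arrays. Sox18, a transcription factor of vessels, rose by 2.30, and Cldn5, a tight junction protein of the vessel barrier, by 1.57. By limma 1 of the 9 was called between genotypes at P8 (0.212% of all probe sets) and 0 at P6 (0.208%). That gene was Slc38a5, an amino acid transporter of retinal vessels known to be reduced in mice without Norrin signalling. It was at 1.67 to 1.98 on all 24 arrays of P2, P4 and P6. At P8 Slc38a5 read 4.59, 3.75, 4.33 and 3.96 in wt and, in rd1, 2.53, 3.19, 2.19 and 3.33. No rd1 array of P8 came up to the lowest wt array of that age, and all 8 exceeded the arrays of the earlier ages. Between P4 and P8 it rose by 2.46 in wt (5.49-fold) and by 1.08 in rd1 (2.11-fold). rd1 minus wt at P8 was -1.35 ± 0.16 (SE, adjusted p = 1.69e-05 by limma), a 2.55-fold difference, and the two-sided exact permutation test gave p = 0.0286. The change from P4 to P8 in rd1 minus that in wt was -1.38 ± 0.22 (SE, adjusted p = 0.00747 by limma). These p-values lean on the small spread of the earlier ages, and the spread within P8 was larger (SD 0.37 in wt and 0.54 in rd1, n = 4 arrays). With the arrays of P8 alone in the fit, the difference at P8 was not called (adjusted p = 0.256 by limma), and all readings lay below the top of the control range.

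At P8 Sox18 read 5.55 to 6.78 on the wt arrays and 5.21 to 6.41 on the rd1 arrays, and Cldn5 read 8.31 to 8.68 and 7.62 to 8.73. Both overlapped between the genotypes. Over all 18 endothelial markers, rd1 minus wt at P8 had a median of -0.20 with 0 higher and 2 lower by limma (0.212% of all probe sets were called). These 18 include Sox18, Cldn5 and Slc38a5, and Slc38a5 is 1 of the 2, so the list is not independent of that gene. The summed linear level of the list was 2527 to 2919 in wt and 2058 to 4240 in rd1, with 6 of the 18 in the control range on all arrays. The part of vessel content in the difference of Slc38a5 was not tested.

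**Figure D5:**
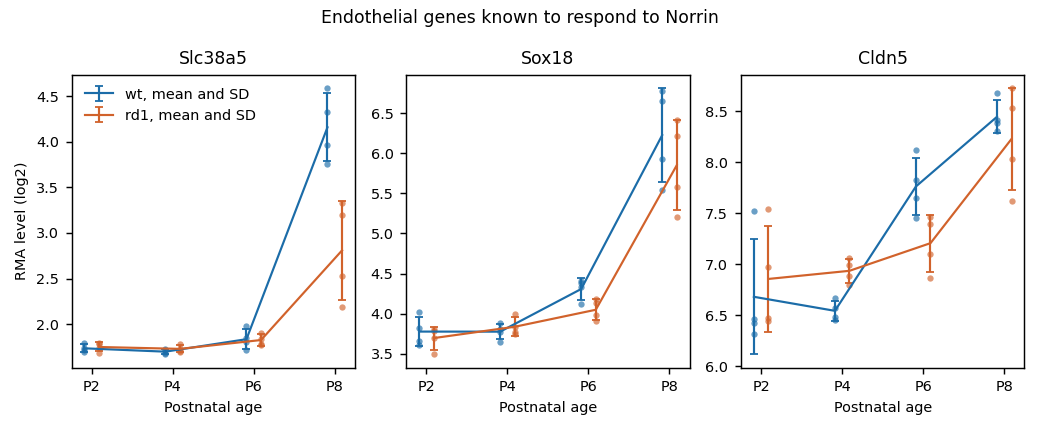
RMA level (log2) against postnatal age for Slc38a5, Sox18 and Cldn5, which respond to Norrin in retinal vessels; points are arrays, lines join the mean of 4 arrays and bars are the SD, for wt and rd1. Slc38a5 left its floor only at P8, where the 4 wt arrays lie above the 4 rd1 arrays, while both genotypes overlap at P8 for Sox18 and Cldn5.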

How the data were processed

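Retinal RNA from 32 pools was hybridised by the authors to MOE430A arrays. The deposited values are log2 levels that the authors made with Robust Multichip Average (background correction, quantile normalization and summarization), in a version not given in the sources used here. Quantile normalization gives all arrays nearly 1 distribution, so a shift shared by most probe sets cannot be seen, and the number of arrays limits the precision. A second deposited table holds signed average fold changes and p-values of the authors' own two-stage comparison, and it was not used.

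The 64 array control probe sets were left out of 22690. Symbols came from the platform annotation: 20380 probe sets had 1 symbol, 691 several and 1555 none listed, and only those with 1 symbol were used for named genes. A model with 1 mean for each of the 8 groups was fitted to all 22626 probe sets with limma 3.58.1 in R 4.3.3 (eBayes with an intensity trend, 24 residual degrees of freedom), with Benjamini-Hochberg adjustment across the whole array and a call at 0.05. Single genes were also compared between genotypes with a two-sided exact permutation test. The script was tested on simulated data.

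Members, lists and comparisons were chosen with earlier results of these data known. All members are named. Values on every array are given for the Norrin complex, Ctnnb1, Axin2 and Lef1, for members whose P8 and P2 levels differed by 1 or more with a call, and for Lrp6 and Slc38a5, which were chosen after their values were seen. For the lists, the members with the smallest p are named. Alternatives were a replicate block, no trend, robust variance, array weights, median centring, a further quantile normalization, a filter on dim probe sets, the mean over probe sets, fewer groups in the fit, no array of P2, each array left out, and, chosen after seeing the data, leaving out either 4 arrays of P2.
The labels name each array a sample of its own; which pools shared litters was not stated, so p-values measure the spread between these samples. No pair of arrays held identical values, and arrays of 1 group correlated at 0.981 to 0.998 over all probe sets.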

Additional observations from a re-analysis of the deposited data

Results flagged for a closer look

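For the 13 members given on every array and Slc38a5, each group of 4 arrays was searched for an array far from the other 3. Of 112 groups 5 had one, where chance alone gives about 1 in 20. They were wt replicate 4 of P6 for Ctnnb1 (12.16, against 12.78 to 12.84), rd1 replicate 4 of P4 for Axin2 (7.36, against 6.95 to 7.00), wt replicate 4 of P4 for Fzd5 (4.26, against 3.77 to 3.84), wt replicate 1 of P4 for Wnt5b (6.96, against 6.28 to 6.36) and rd1 replicate 4 of P8 for Lrp6 (6.61, against 7.16 to 7.25).

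Ctnnb1 was lower on each rd1 array at P4 and higher on each at P6. The change of rd1 minus wt between these ages was 0.54 ± 0.16 (SE, adjusted p = 0.375 by limma over all probe sets). At P6 the wt arrays other than replicate 4 still lay below all rd1 arrays, and without replicate 4 rd1 minus wt was 0.25 (adjusted p = 0.436 by limma).

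The rise of Slc38a5 from P4 to P8 differed between the genotypes by -1.38 ± 0.22 (SE, adjusted p = 0.00747 by limma). Without the 8 arrays of P2 the same difference had an adjusted p of 0.0675, and with the arrays of P4 and P8 alone 0.355.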

How the results depend on the processing

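Counts of members called moved with several settings. For rd1 minus wt at P2 (0 called), the count was 1 with the replicate block, 1 with array quality weights, 1 with a further quantile normalization and 2 without the 4 arrays whose Pde6b went against the label, the last chosen after seeing the data. With array quality weights it was 1 at P6, 16 at P8, 1 for the change from P4 to P6 between genotypes, 17 from P4 to P6 (4 called) and 25 from P4 to P8 in rd1 (10 called). From P2 to P4 (25 called) it was 12 with median centring, 14 with a further quantile normalization, 10 without the 30% dimmest probe sets and 7 without the 4 arrays of P2 whose Pde6b fitted the label. Median centring gave 22 from P4 to P6, more than from P2 to P4. From P4 to P8 in rd1 it was 5 with a further quantile normalization, 5 without the 30% dimmest probe sets and 4 with only the arrays of the groups compared. Over all probe sets the calls moved in several of these settings too. From P4 to P6 they were 4502 in the main fit, 8817 with median centring and 8277 with array quality weights. From P4 to P8 in rd1 they were 6908 and, with array quality weights, 11193. From P2 to P4 they were 8888 and, with median centring, 6348. For rd1 minus wt at P2 they were 9, with 7 under the replicate block and 9 after a further quantile normalization. At P2 they were 33 with array quality weights and 1278 without the 4 arrays whose Pde6b went against the label. Array quality weights gave 837 at P6, against 47 in the main fit. The cause was not tested.

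After removal of group means, the 16 pairs of 1 number and age correlated at -0.42 to 0.61, too wide a range to show whether replicate numbers pair the samples. Across groups the mean correlation was 0.05 for arrays of the same number and -0.02 for arrays of different numbers. With the number as a replicate block, 16 members were called from P4 to P6 and 17 from P4 to P8 in rd1. Over all probe sets these fits called 6352 and 8310, against 4502 and 6908 in the main fit.

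Leaving out 1 array at a time gave 18 to 27 calls from P2 to P4, 1 to 10 from P4 to P6, 5 to 8 from P6 to P8, 19 to 24 from P2 to P8, 5 to 7 from P4 to P8 in wt and 4 to 14 in rd1. From P4 to P6 the count was 1 without wt replicate 1 and 2 without wt replicate 2 of P4, 8 without rd1 replicate 2 of P4, 7 without wt replicate 3 and 10 without rd1 replicate 1 of P6. From P4 to P8 in rd1 it was 4 and 6 without rd1 replicates 1 and 3 of P4. Between genotypes it was 0 to 1 at P2, with 1 without wt replicate 2 or rd1 replicate 1, 2 or 3, and 0 to 1 at P8, with 1 without rd1 replicate 1. It stayed at 0 for the other comparisons of the genotypes.

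Of 82 results for single genes under 1982 alternatives, 173 lost their call, 60 gained one and 2 changed sign. Lrp5, rd1 minus wt over P4, P6 and P8 (0.09), was -0.0005 after a further quantile normalization, and Axin1 from P6 to P8 (-0.23) was 0.068 with the mean over all of its probe sets. For the 25 members in the control range, signal cannot be told apart from background.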
